A study of Mus musculus with 18 samples.

Results

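Hspd1, Dnajb9, Ppid and Txndc9 are 4 genes whose products are chaperones or bind to chaperones. They were chosen as the chaperone-related genes among the array probes named as non-coding RNA probes that carry an accession which the mouse RefSeq gene table lists for a gene. Of the 80520 non-control probes, 193 could be named in this way, for 143 gene symbols, and 4 probes belonged to these genes, 1 probe per gene. All 4 probes passed the filter on dim signal and were tested together with all other features, 41082 in all, of which 68 were named genes.

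RNA was measured in 3 mouse triple-negative breast cancer cell lines after 72 h in control medium, RPMI 1640 that held 2.2 µM folic acid (the unit of the growth protocol; the series text has mM) and regular fetal bovine serum, or in RPMI 1640 that lacked folic acid and was made up with dialyzed serum, called withdrawal here. By the labels, E-Wnt and M-Wnt came from mammary tumours and metM-Wnt from a liver metastasis, and each of the 6 groups had 3 biological replicates. Each of the 18 arrays carried the cell line in the red channel and RNA of NIH3T3, a mouse fibroblast line, as the common reference in the green channel. The dyes were not exchanged on any array. For a given probe, a difference between the dyes therefore cannot be told apart from a difference between a line and the reference. Because the serum changed together with folic acid, the effects of the vitamin and of serum dialysis cannot be told apart. A difference between lines is one between these 3 lines and not between classes of tumour. Of 42 epithelial, mesenchymal, liver and other cell type markers listed, 0 had a named probe, so the labelled identity of the lines was not checked by markers.

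Chaperones hold unfolded or partly folded proteins, keep them from clumping and release them to fold, and cells carry separate sets of them in the cytosol, the mitochondria and the endoplasmic reticulum. Hspd1 is Hsp60, the barrel-shaped chaperonin of the mitochondrial matrix. Dnajb9, also known as ERdj4, is a J-domain protein of the endoplasmic reticulum that works with the Hsp70 protein BiP and is a known target of the unfolded protein response. Ppid is cyclophilin 40, a peptidyl-prolyl isomerase that binds Hsp90 through tetratricopeptide repeats and sits in steroid receptor complexes, and Txndc9 is a thioredoxin-domain protein of the phosducin-like family that binds the cytosolic chaperonin CCT. Folate carries the carbon units used to make purines, thymidylate and methionine.

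The probe sequences are shown because each gene was read through a single probe of 60 bases, so every value below is the signal of that probe. The array design names them as non-coding RNA probes, and their position in the transcript and their strand were not checked, so a signal from the opposite strand cannot be told apart from the messenger RNA. They are the sequences of the scanner files, written here in lower case, 5′ to 3′. For Dnajb9 only bases 31 to 60 are given, with the single start codon ATG of that stretch in capitals.
Hspd1: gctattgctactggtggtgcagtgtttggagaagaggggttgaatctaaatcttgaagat
Dnajb9: agaaATGgctactccacagtcagttttcgt
Ppid: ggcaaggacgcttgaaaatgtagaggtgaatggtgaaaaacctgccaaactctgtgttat
Txndc9: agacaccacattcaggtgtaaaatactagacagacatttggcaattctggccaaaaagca
The Dnajb9 stretch had 0 in-frame stop codons in the 26 bases from its ATG on. At least 1 forward reading frame was open along the whole probe for each of the 4, a property shared by 70.5% of the 10802 probes of 60 bases named in the same way. The GC content was 43.3% for Hspd1 and Ppid, 51.7% for Dnajb9 and 40% for Txndc9, and 0 other probes on the array shared a run of 20 bases with any of them on either strand.

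All 4 probes were measured well. Both spots of each probe were well above background in both channels on 18 of 18 arrays, and 0 were saturated. The spots of a probe differed on a typical array by 0.055 on the log2 scale for Hspd1, 0.066 for Dnajb9, 0.053 for Ppid and 0.045 for Txndc9, which is less than the spread between replicate arrays in most groups. The median red signal over the arrays was 32527 units for Hspd1, 422 for Dnajb9, 11280 for Ppid and 7458 for Txndc9, against a local background between 55 and 59. Dnajb9 was therefore read closest to the background. Probes differ in how well they bind, so these signals do not rank the genes.

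The arrays were not equally bright. The mean red signal of an array lay between 4213 and 5170 in M-Wnt control and between 1964 and 3722 in M-Wnt withdrawal, and between 3268 and 3502 in metM-Wnt control and 2260 and 2837 in metM-Wnt withdrawal. In E-Wnt the ranges were 4701 to 6649 and 4129 to 5604, while the mean green signal stayed between 3371 and 4618 on all arrays. The arrays came from 5 slides. Slide 1 held E-Wnt arrays, slide 2 held E-Wnt withdrawal and M-Wnt control arrays, slide 3 held M-Wnt arrays, and slides 4 and 5 held metM-Wnt arrays. Within a medium no slide held more than 1 line. M-Wnt and E-Wnt are linked only through slide 2 and the arrays of the other medium, and metM-Wnt and its slides cannot be told apart. Every level below is a loess-normalised log2 ratio of the line over NIH3T3, and a difference was called where limma's adjusted p, Benjamini-Hochberg over the 41082 features, was under 0.05.

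**Figure D1:**
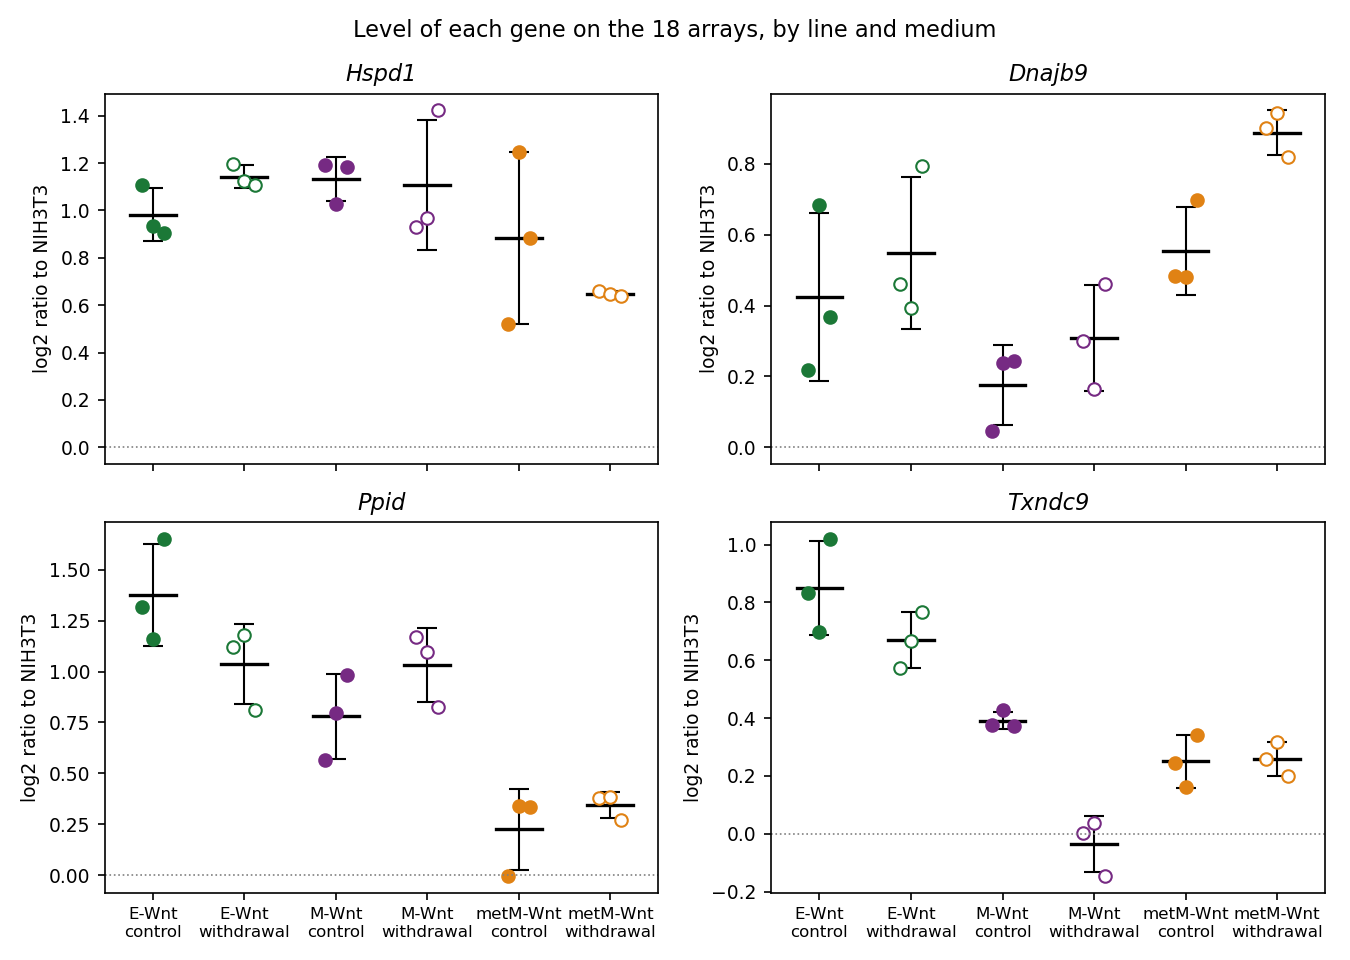
Log2 ratio over NIH3T3 of Hspd1, Dnajb9, Ppid and Txndc9 (1 panel each, with its own vertical axis) on the 18 arrays, by line and medium; each point is 1 array and each bar the mean of 3. In control medium Ppid and Txndc9 step down from E-Wnt to the other lines, Txndc9 is lowest in M-Wnt withdrawal with a mean of -0.035, and Dnajb9 is highest in metM-Wnt withdrawal with a mean of 0.89.

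Txndc9, the partner of the cytosolic chaperonin, was the only one of the 4 genes whose level changed with folic acid withdrawal in a single line. In M-Wnt control medium its log2 ratio was 0.38, 0.43 and 0.37 on the 3 arrays. In M-Wnt withdrawal it was 0.0031, 0.037 and -0.15. The groups did not overlap, and the normalised signal went from above that of the fibroblast reference to about equal to it. Withdrawal lowered Txndc9 by 1.34-fold in M-Wnt (log2 difference -0.43, SE 0.10, 95% interval -0.64 to -0.21, limma adjusted p = 0.0084). In that comparison 18.4% of all features were called and 52.8% had groups that did not overlap, so 1 call among 4 genes is near the background share.

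The unnormalised red signal was lower as well, but this was not particular to called differences. The red signal of Txndc9 lay between 8112 and 11353 in M-Wnt control and between 2384 and 5700 in M-Wnt withdrawal, while the green signal was 5740 to 7698 and 7364 to 7610. The red signal of the whole array was also lower in M-Wnt withdrawal, as given above, and its part in the result was not tested. Unnormalised red signals fell without overlap also where no difference was called. For Txndc9 in metM-Wnt they were 6161 to 6717 in control and 3639 to 5003 in withdrawal (normalised log2 difference 0.0074). For Hspd1 in M-Wnt they were 45759 to 46226 in control and 18275 to 26645 in withdrawal (normalised log2 difference -0.027). With the red channel alone, quantile-normalised so that all arrays had the same distribution, the difference was -0.43 (limma adjusted p = 0.017). With each array only centred on its median it was -1.15 (limma adjusted p = 0.022), where the median of all features was itself -0.25. The lowest array, replicate 3 of M-Wnt withdrawal, was also the dimmest of the 18, and without it the difference was -0.37 (limma adjusted p = 0.044).

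The slide bears on this result. Replicate 3 of M-Wnt control shared slide 3 with all 3 arrays of M-Wnt withdrawal, and its ratio of 0.37 was above all 3 of theirs. With the slide as a fixed block the difference was -0.41 (limma adjusted p = 0.15). Within slide 3, with 1 control array, it was also -0.41. Against that 1 control array the size of the fall was nearly the same, but with the slide block it was no longer called.

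**Figure D2:**
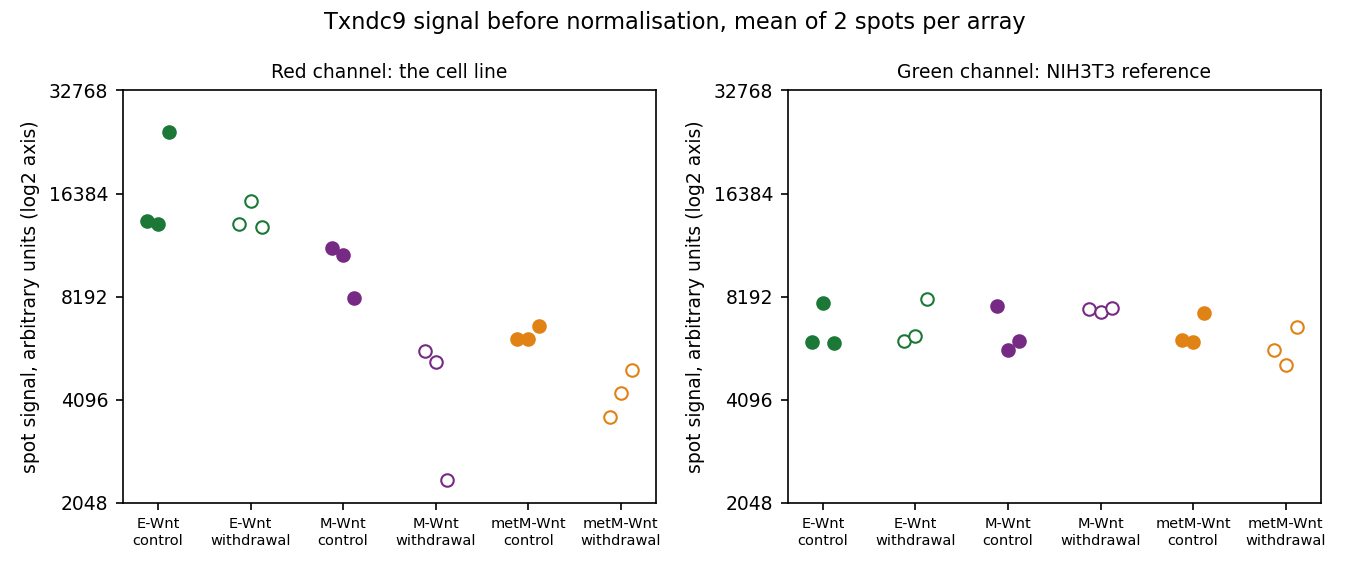
Unnormalised Txndc9 signal on each array (mean of 2 spots, arbitrary units, log2 axis), with the cell line's red channel on the left and the NIH3T3 green channel on the right. Red signals of M-Wnt withdrawal sit between 2384 and 5700, all below those of M-Wnt control at 8112 to 11353, while green signals of M-Wnt withdrawal stay between 7364 and 7610. Red signals of metM-Wnt withdrawal, 3639 to 5003, also sit below those of metM-Wnt control, 6161 to 6717, where no normalised difference was called.

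In the other lines Txndc9 was not called. In E-Wnt it was 0.83, 0.70 and 1.02 in control medium and 0.57, 0.67 and 0.77 in withdrawal, with overlapping arrays (log2 difference -0.18, 95% interval -0.39 to 0.033, limma adjusted p = 0.70). In metM-Wnt it was 0.24, 0.16 and 0.34 in control medium and 0.26, 0.32 and 0.20 in withdrawal, again with overlap. The interval of that last difference was -0.21 to 0.22. The difference between the responses of metM-Wnt and M-Wnt was 0.43 (SE 0.14, 95% interval 0.13 to 0.74) and was not called (limma adjusted p = 0.093, with 5.09% of features called). The difference between M-Wnt and E-Wnt was -0.25 (95% interval -0.55 to 0.057, limma adjusted p = 0.32, with 6.86% called), and that between metM-Wnt and E-Wnt was 0.19 (limma adjusted p = 0.60, with 0.0852% called). The difference between metM-Wnt and M-Wnt was called with only the arrays of those lines in the fit (0.43, limma adjusted p = 0.043) and with the slide as a random block, an alternative added after seeing the data (0.45, limma adjusted p = 0.042). That the fall of Txndc9 differs between lines thus depends on the fit. Averaged over the 3 lines, withdrawal lowered Txndc9 by 1.15-fold (log2 difference -0.20, 95% interval -0.32 to -0.077, limma adjusted p = 0.0496, with 6.91% of features called). That average call was kept in 7 of 28 other settings, and the closing section gives the values.

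Hspd1, Dnajb9 and Ppid showed no called response to withdrawal in any line. The share of features called was 0.0389% in E-Wnt and 0.404% in metM-Wnt, so in those lines a single gene had to stand far out to be called. Over the 4 genes, the median difference was -0.028 in E-Wnt, 0.053 in M-Wnt and 0.064 in metM-Wnt, beside medians of -0.0030, 0.044 and -0.016 over all features. The 4 genes did not shift together.

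Dnajb9, the endoplasmic reticulum co-chaperone, came nearest to a response in metM-Wnt. Its log2 ratio was 0.48, 0.48 and 0.70 in metM-Wnt control and 0.90, 0.94 and 0.82 in metM-Wnt withdrawal. All 3 withdrawal arrays were above all 3 control arrays, as was true in either direction of 20.3% of features in that comparison. The log2 difference was 0.33 (SE 0.14, 95% interval 0.047 to 0.62, limma unadjusted p = 0.025), and it did not pass after adjustment (limma adjusted p = 0.29). In E-Wnt the ratios were 0.22, 0.68 and 0.37 in control and 0.46, 0.39 and 0.79 in withdrawal, and the groups overlapped (log2 difference 0.12, 95% interval -0.16 to 0.41). In M-Wnt they were 0.045, 0.24 and 0.24 in control and 0.30, 0.16 and 0.46 in withdrawal, also with overlap (log2 difference 0.13, 95% interval -0.15 to 0.42). The average over the lines was 0.20 (95% interval 0.032 to 0.36, limma adjusted p = 0.14). The responses of the lines did not differ by a called amount, with differences between lines of 0.0088 to 0.21.

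Ppid, the Hsp90-binding cyclophilin, had opposite signs in E-Wnt and M-Wnt. In E-Wnt its log2 ratio was 1.32, 1.16 and 1.65 in control medium and 1.12, 1.18 and 0.81 in withdrawal (log2 difference -0.34, 95% interval -0.67 to -0.011, limma adjusted p = 0.61). In M-Wnt it was 0.56, 0.79 and 0.98 in control and 1.17, 1.10 and 0.83 in withdrawal (log2 difference 0.25, 95% interval -0.076 to 0.58, limma adjusted p = 0.26). The arrays of both media overlapped in each line. The difference between these responses was 0.59 (SE 0.22, 95% interval 0.13 to 1.05), and it was not called (limma adjusted p = 0.12). With median centring it was -0.18 and the M-Wnt response itself -0.43, where the medians of all features were -0.35 and -0.25. In metM-Wnt Ppid was -0.0045, 0.34 and 0.34 in control and 0.38, 0.38 and 0.27 in withdrawal, so 1 control array stood below the other 5 arrays (log2 difference 0.12, 95% interval -0.21 to 0.45).

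Hspd1, the mitochondrial chaperonin, stayed between 0.52 and 1.42 on all 18 arrays after normalisation. In E-Wnt it was 1.11, 0.93 and 0.90 in control medium and 1.20, 1.12 and 1.11 in withdrawal (log2 difference 0.16, 95% interval -0.17 to 0.49). In M-Wnt it was 1.19, 1.03 and 1.18 in control and 0.93, 0.97 and 1.42 in withdrawal (log2 difference -0.027, 95% interval -0.36 to 0.31). In metM-Wnt it was 0.52, 1.25 and 0.88 in control and 0.66, 0.65 and 0.64 in withdrawal (log2 difference -0.23, 95% interval -0.57 to 0.098). Arrays of both media overlapped in every line. The metM-Wnt control arrays were the most scattered group of this gene, with an SD of 0.36, and the metM-Wnt withdrawal arrays the tightest, with an SD of 0.012.

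**Figure D3:**
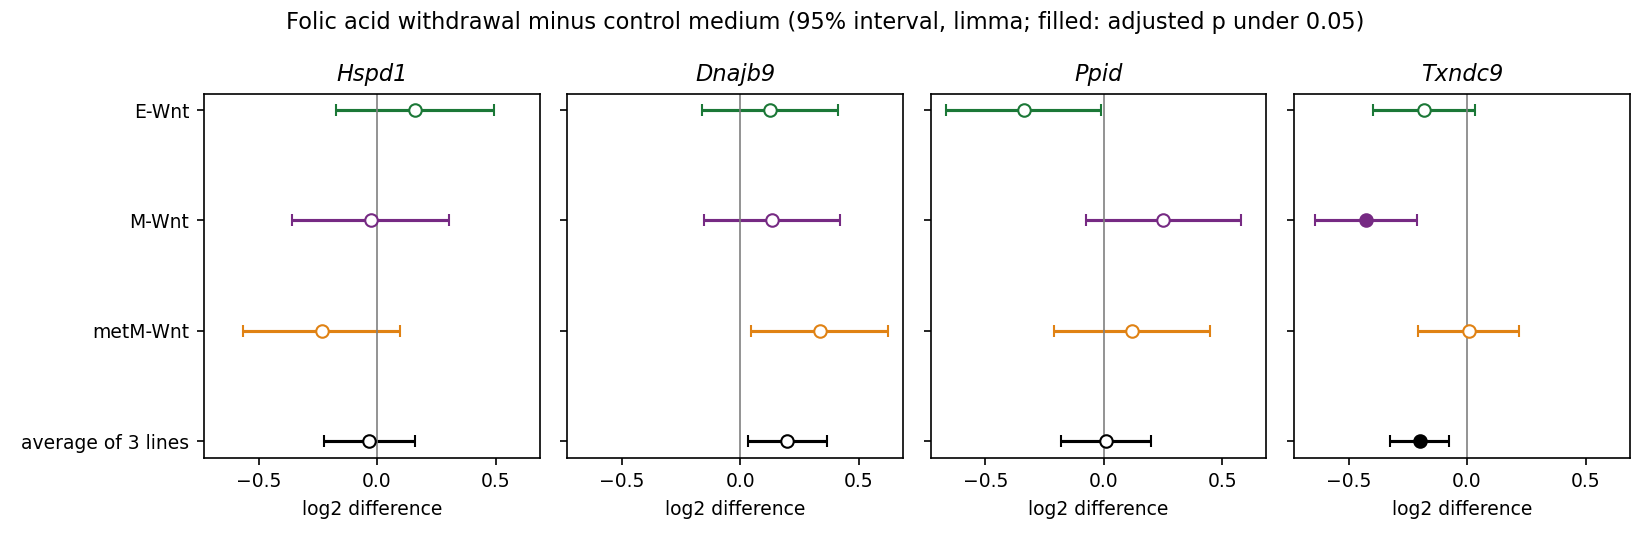
Log2 difference, withdrawal minus control medium, of the 4 genes, by line and as the average of all 3, with limma's 95% interval; filled points have an adjusted p under 0.05. Txndc9 in M-Wnt at -0.43 and its average over the lines at -0.20 are the filled points, and the other 14 intervals belong to differences that were not called.

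Between lines, 11 of the 13 called differences were found, none of them for Hspd1 or Dnajb9 in control medium. Ppid and Txndc9 were both lower in M-Wnt and metM-Wnt than in E-Wnt in control medium. Ppid had a mean log2 ratio of 1.38 ± 0.25 (SD, n = 3) in E-Wnt, 0.78 ± 0.21 in M-Wnt and 0.22 ± 0.20 in metM-Wnt. After normalisation this is 2.60, 1.72 and 1.17 times the reference signal. Txndc9 had 0.85 ± 0.16 in E-Wnt, 0.39 ± 0.031 in M-Wnt and 0.25 ± 0.090 in metM-Wnt. For both genes the 3 lines formed 3 separate steps with no overlap between their arrays. For Txndc9 the step from M-Wnt to metM-Wnt was not called (log2 difference -0.14, limma adjusted p = 0.46). Arrays without overlap were found for 56.4% of features between M-Wnt and E-Wnt, 50.4% between metM-Wnt and E-Wnt and 33.3% between metM-Wnt and M-Wnt.

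In numbers, Ppid was 1.51-fold lower in M-Wnt than in E-Wnt in control medium (log2 difference -0.60, SE 0.15, limma adjusted p = 0.0044) and Txndc9 1.37-fold lower (log2 difference -0.46, SE 0.10, limma adjusted p = 0.0012). Between these lines 45.6% of features were called, so 2 of 4 genes is near the background. These groups share no slide, and with the slide as a fixed block the call of Ppid was lost (log2 difference -0.57, limma adjusted p = 0.19). Both calls were lost under median centring (-0.56, limma adjusted p = 0.29, for Ppid and -0.41, limma adjusted p = 0.35, for Txndc9). In metM-Wnt against E-Wnt, where 44.1% of features were called, Ppid was 2.22-fold lower (log2 difference -1.15, 95% interval -1.48 to -0.82, limma adjusted p = 1.2e-05) and Txndc9 1.52-fold lower (log2 difference -0.60, limma adjusted p = 0.00012). The Ppid difference was the widest of the 52 differences computed for the 4 genes. In metM-Wnt against M-Wnt, where 9.33% were called, Ppid was 1.47-fold lower (log2 difference -0.56, SE 0.15, limma adjusted p = 0.032). That call was lost without replicate 2 or 3 of M-Wnt control or replicate 1 or 3 of metM-Wnt control, with differences from -0.66 to -0.44 over all arrays left out in turn. It was also lost with the replicate number as a block (-0.56, limma adjusted p = 0.057) and under median centring (-0.95, limma adjusted p = 0.23).

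Hspd1 and Dnajb9 were not called between lines in control medium. Hspd1 differed by 0.15 between M-Wnt and E-Wnt (95% interval -0.18 to 0.48), by -0.25 between metM-Wnt and M-Wnt (95% interval -0.58 to 0.081) and by -0.099 between metM-Wnt and E-Wnt (95% interval -0.43 to 0.23). Dnajb9 was lower in M-Wnt than in E-Wnt by a value of -0.25 (limma adjusted p = 0.15). In metM-Wnt it was above M-Wnt by 0.38, with no overlap of the arrays, a state that 33.3% of features were in (95% interval 0.091 to 0.67, limma adjusted p = 0.099).

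In folic acid-free medium the picture differed by gene. Txndc9 was 1.63-fold lower in M-Wnt than in E-Wnt (log2 difference -0.70, 95% interval -0.92 to -0.49, limma adjusted p = 2.3e-05), the only one of the 4 genes called in that comparison as fitted here, in which 45% of features were called. With median centring Txndc9 was at -1.48, and Hspd1 (-0.76, limma adjusted p = 0.034) and Dnajb9 (-0.72, limma adjusted p = 0.0013) were called as well, where the median of all features was -0.35. Ppid, which was lower in M-Wnt than in E-Wnt in control medium, had means of 1.03 ± 0.18 and 1.04 ± 0.20 there (log2 difference -0.0063, 95% interval -0.33 to 0.32). As given above, the change of this line difference with medium was not itself called.

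In metM-Wnt against E-Wnt without folic acid, 3 of 4 genes were lower, beside 43.4% of features called in either direction and 21.4% called lower. Hspd1 was 1.41-fold lower (log2 difference -0.49, SE 0.16, limma adjusted p = 0.017), Ppid 1.62-fold lower (log2 difference -0.69, SE 0.15, limma adjusted p = 0.0015) and Txndc9 1.33-fold lower (log2 difference -0.41, SE 0.10, limma adjusted p = 0.0032). With median centring the differences were -1.22 for Hspd1, -1.46 for Ppid and -1.16 for Txndc9, where the median of all features was -0.40. The arrays did not overlap for any of these genes, as for 47.7% of all features. The Hspd1 call was lost by a narrow margin without replicate 1 of E-Wnt withdrawal (log2 difference -0.47, limma adjusted p = 0.0505). Dnajb9 ran the other way, with a difference of 0.34 that missed the threshold (95% interval 0.052 to 0.63, limma adjusted p = 0.054).

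In metM-Wnt against M-Wnt without folic acid, 7.73% of features and 2 of 4 genes were called, in opposite directions. Dnajb9 was 1.49-fold higher in metM-Wnt (log2 difference 0.58, 95% interval 0.29 to 0.87, limma adjusted p = 0.015) and Ppid 1.61-fold lower (log2 difference -0.69, 95% interval -1.02 to -0.36, limma adjusted p = 0.011). Both calls were lost without replicate 1 or replicate 2 of M-Wnt withdrawal, and that of Dnajb9 also without replicate 2 of metM-Wnt withdrawal, with ranges of 0.51 to 0.66 for Dnajb9 and -0.79 to -0.62 for Ppid. Both were also lost under median centring, at 0.56 and -0.73. Hspd1 was lower by a value of -0.46 (limma adjusted p = 0.091) and Txndc9 higher by 0.29 (limma adjusted p = 0.093), both without overlap of the arrays, which 34.1% of features shared. Comparisons that use the same group share its arrays, so the calls of metM-Wnt against each of the other lines are not independent of each other.

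**Figure D4:**
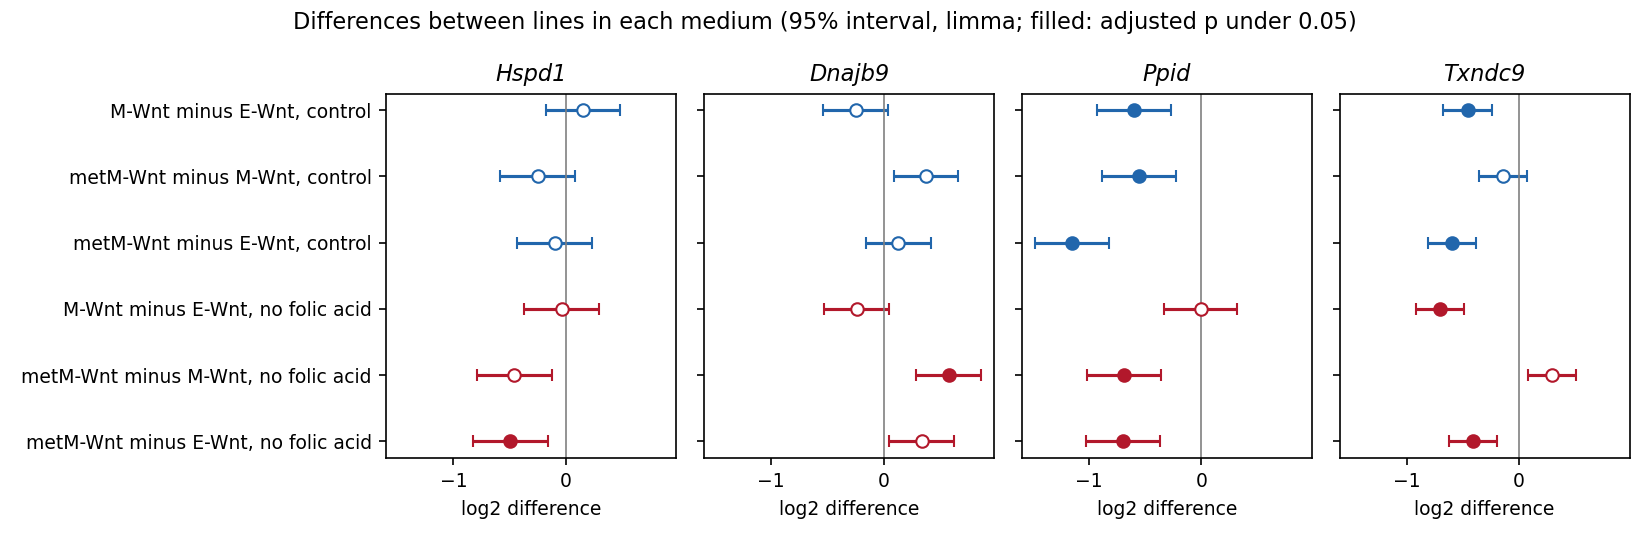
Log2 difference between lines of the 4 genes in control medium and in folic acid-free medium, with limma's 95% interval; filled points have an adjusted p under 0.05. Ppid in metM-Wnt against E-Wnt in control medium reaches -1.15, and Dnajb9 in metM-Wnt against M-Wnt without folic acid, at 0.58, is the only filled point above 0.

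The order of the 6 group means was different for each gene. Txndc9 ran from E-Wnt control (0.85) and E-Wnt withdrawal (0.67 ± 0.098) over M-Wnt control (0.39), metM-Wnt withdrawal (0.26 ± 0.059) and metM-Wnt control (0.25) down to M-Wnt withdrawal (-0.035 ± 0.097). The only neighbours in the order of any of the 4 genes that differed by a called amount were E-Wnt withdrawal and M-Wnt control for Txndc9 (log2 gap 0.28, limma adjusted p = 0.033). Ppid ran from E-Wnt control (1.38), E-Wnt withdrawal (1.04) and M-Wnt withdrawal (1.03) over M-Wnt control (0.78) to metM-Wnt withdrawal (0.34 ± 0.064) and metM-Wnt control (0.22). Its widest gap between neighbours, 0.44 between M-Wnt control and metM-Wnt withdrawal, came without overlap of the arrays, as for 42.3% of features, but was not called (limma adjusted p = 0.072).

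Dnajb9 had metM-Wnt at the top, with 0.89 ± 0.063 in withdrawal and 0.55 ± 0.12 in control, followed by E-Wnt with 0.55 ± 0.21 in withdrawal and 0.42 ± 0.24 in control and M-Wnt with 0.31 ± 0.15 in withdrawal and 0.18 ± 0.11 in control. Within each line the withdrawal mean stood above the control mean, except that with median centring the M-Wnt difference was -0.16. Hspd1 was highest in E-Wnt withdrawal (1.14 ± 0.048), M-Wnt control (1.13 ± 0.093) and M-Wnt withdrawal (1.11 ± 0.27), then E-Wnt control (0.98 ± 0.11) and metM-Wnt control (0.88 ± 0.36), and lowest in metM-Wnt withdrawal (0.65 ± 0.012). Of the 15 pairs of groups, 2 were called for Hspd1, 4 for Dnajb9, 8 for Ppid and 9 for Txndc9. In the 6 pairs that crossed line and medium, the share of all features called was 45%, 43.9%, 46.1% and 41.9% where E-Wnt was 1 of the groups, 13.9% for metM-Wnt withdrawal against M-Wnt control and 10% for metM-Wnt control against M-Wnt withdrawal. Each of the 4 called pairs of Dnajb9 included metM-Wnt withdrawal or M-Wnt control, the ends of its order.

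How far a gene's group means spread can be read against all features. The span from the highest to the lowest group mean was 0.49 for Hspd1, which is at the 32.5th percentile of all features, 0.71 for Dnajb9 (54.0th), 1.15 for Ppid (77.8th) and 0.89 for Txndc9 (65.7th). The residual SD between replicate arrays was 0.20 for Hspd1, 0.16 for Dnajb9, 0.19 for Ppid and 0.098 for Txndc9. Txndc9 thus had the most called pairs on a narrower span than Ppid.

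The genes did not follow 1 common pattern. Over the 6 group means Hspd1 and Dnajb9 had a Pearson r of -0.85 (-0.53 over the 18 arrays), Hspd1 and Ppid 0.64 (0.45 over the arrays), and Ppid and Txndc9 0.53 (0.52 over the arrays). Dnajb9 and Ppid had -0.51, Hspd1 and Txndc9 0.16, and Dnajb9 and Txndc9 0.0025. These values are descriptions over arrays that share slides, groups and the reference RNA, and no test was made.

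Among the 64 other named genes, those whose 6 group means were most like Txndc9 were Rpl18, a ribosomal protein gene (r 0.93, and 0.81 over the 18 arrays), Ezr, which encodes the membrane-cytoskeleton linker ezrin (0.92 and 0.83), and Ramac, an activator of the cap methyltransferase (0.91 and 0.61). Ppid was most like Ndufs6, a subunit of mitochondrial complex I (0.90 and 0.77), Pfdn1 (0.84 and 0.38) and Pate14 (0.79 and 0.69). Hspd1 was most like the defensin gene Defb14 (0.93 and 0.64), the chemokine gene Cx3cl1 (0.75 and 0.25) and the helicase gene Ddx18 (0.72 and 0.56), and Dnajb9 was most like Supt4a, a transcription elongation factor gene (0.83 and 0.48), Cir1, a corepressor gene (0.82 and 0.41), and Hsd17b2, a steroid dehydrogenase gene (0.67 and 0.53). For Cx3cl1, Pfdn1 and Cir1 the likeness was much weaker over single arrays than over group means. Cx3cl1, Ddx18, Cir1, Hsd17b2 and Pfdn1 had no called difference in any comparison. The genes were picked for the highest r over only 6 means, so high values come in part from the picking.

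Few other folding genes could be read on this array through named probes. Of 141 further genes in 6 lists (chaperones of the cytosol and mitochondria, J-domain proteins, co-chaperones, peptidyl-prolyl isomerases, thioredoxin and disulphide isomerases, and the unfolded protein response), 3 had a named probe, and that of the cyclophilin gene Ppih did not pass the filter on dim signal. Pfdn1, a subunit of the prefoldin complex that hands actin and tubulin to CCT, was called in 0 of the 13 comparisons. Its withdrawal differences were 0.036 in E-Wnt, 0.18 in M-Wnt and -0.16 in metM-Wnt (SE 0.22 each). Hspb1, a small heat shock protein gene, rose in M-Wnt on withdrawal (log2 difference 1.29, SE 0.18, limma adjusted p = 0.00016), beside 18.4% of features called there, and it was called in 9 of the 13 comparisons. No statement on J-domain proteins other than Dnajb9 or on the unfolded protein response as a group can be drawn from these probes.

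Promoter sequence was looked up because Hspd1 is a known heat shock gene and Dnajb9 a known stress gene of the endoplasmic reticulum. RefSeq promoter windows of 300 bases (250 before and 50 after the transcript start, build GRCm38.p6) were found for 3 of the 4 genes, with 2 windows for Hspd1, 1 for Dnajb9 and 1 for Txndc9. Motif letters were searched on both strands, and capitals mark the match.
Hspd1 heat shock element, chr1:55088055-55088080, minus strand: ggccTTCCGGAAGGTTCtagaacgga
Hspd1 E-box, chr1:55088306-55088335, minus strand: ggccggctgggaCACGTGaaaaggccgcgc
Dnajb9 E-box, chr12:44210158-44210187, minus strand: acaacagttttcCACGTGcgcgtagggcgc
Txndc9 E-box, chr1:37997348-37997377, minus strand: cggccattagccCACGTGaagcgtaggctc
A heat shock element, searched as GAA, TTC and GAA with 2 free bases between neighbouring blocks, was matched in 1 of the 4 windows, that of Hspd1, and in 0.603% of all 32851 promoters. That Hspd1 window held 2 overlapping matches, which start 144 and 139 bases before its transcript start. The capitals mark the first of them. The E-box and CCAAT matches of Hspd1 lie in its other window, which has a transcript start of its own. The CCAAT match there lies after that start. The E-box CACGTG was matched in 3 of 4 windows, against 7.15% of all promoters, and CCAAT, which is also part of the stress element below, in 3 of 4 against 37.4%. The endoplasmic reticulum stress element, CCAAT and CCACG with 9 free bases between them (0.119% of promoters), the unfolded protein response element TGACGTGG (0.676%) and TATAAA (13.6%) were matched in 0 of the 4 windows. The member windows had a GC content of 59% to 73.3%, beside a median of 52.7% over all promoters. A match describes letters only, and no binding was measured.

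**Figure D5:**
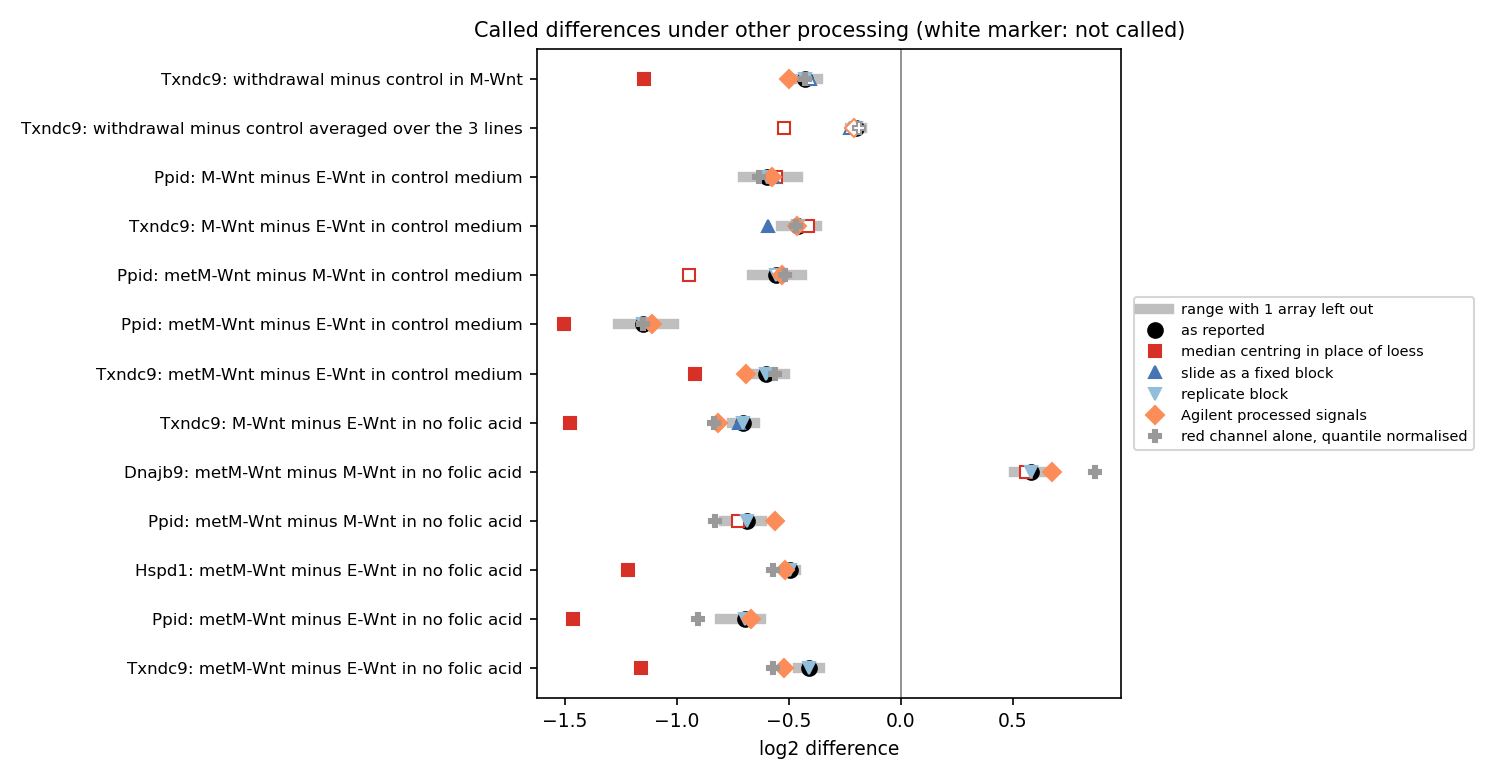
The 13 called log2 differences of the 4 genes as reported (black), under 5 other settings (coloured; a white marker was not called) and as a range with 1 array left out (grey bar). All points of a row lie on the same side of 0, and with median centring Txndc9 in M-Wnt against E-Wnt without folic acid lies at -1.48. Rows of metM-Wnt against another line have no point for the slide block, which could not be fitted.

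Over the 52 differences of the 4 genes, 13 were called. The share of all features called ran from 0.0389% to 45.6% over the comparisons. Of the 13 calls, 5 were kept in every alternative that could be fitted and with every array left out in turn. They were Ppid and Txndc9 in metM-Wnt against E-Wnt in both media and Txndc9 in M-Wnt against E-Wnt without folic acid. The fixed slide block, which ended other calls, could not be fitted for metM-Wnt against E-Wnt, so those calls did not meet it. The share of all called features that kept their call in the same settings was not computed. Over the alternatives that could be fitted, Ppid in metM-Wnt against E-Wnt lay between -1.50 and -1.01 in control medium and between -1.46 and -0.62 without folic acid. Txndc9 in M-Wnt against E-Wnt without folic acid lay between -1.48 and -0.65. No called difference changed sign in any of them.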

How the data were processed

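Deposited files were 18 scanner outputs of 2-colour Agilent arrays and a series table. The authors ran Agilent Feature Extraction 10.7.3.1, a version given in the submitters' processing notes. The scanner files hold, per the file headers, spot intensity values and a log10 ratio of red, Cy5, over green, Cy3; the series table deposited by the authors equals that log10 ratio within 0.005. The direction of the ratio follows the dyes in the labels. Outlier marks and background calls are the deposited columns of the scanner files. 

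Here, limma 3.58.1 (R 4.3.3) corrected mean signals for background with normexp (offset 50), fitted loess within arrays, giving control and outlier-marked spots weight 0, and averaged spots per probe and named probes per gene. Of 165888 spots an array, 4848 were controls. A probe was tested where both spots were well above background in red on all 3 arrays of at least 1 group: 41109 probes, 41082 features, with 20 further probes left without a usable spot. One model of 6 group means gave all comparisons (12 residual and 3.96 prior degrees of freedom). All p-values are two-sided. Arrays give no read depth; their number, 3 a group, limits the precision.

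The members, gene lists and tests were chosen with earlier results of these data known. The rule named the 4 genes in every comparison, the 3 other named genes most like each in their 6 group means, and every tested gene of the wider lists. Alternatives were median centring, processed signals, the red channel, the series table, other filters, slide and replicate blocks, the compared groups only, and each array left out. Replicate numbers are shared by the groups: samples of the same number in both media had deviations correlated from -0.65 to 0.55, over 0.1 in 3 of 9 pairs, and so were not treated as paired. Figures were drawn with matplotlib 3.10.9. The fit was run on simulated data with independent errors and known shifts in M-Wnt withdrawal. That simulation held no slide, brightness or normalisation effect, so it does not bear on those.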

Additional observations from a re-analysis of the deposited data

How the results depend on the processing

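Of 1500 alternative values for the 52 differences, 1397 kept their direction and side of the threshold, and 49 changed sign, of which 0 were called under either setting. Both other filters on dim probes and the brightest probe per gene changed no call. Each gene had 1 probe, well above background on all 18 arrays, so these settings could not change its log2 differences. Leaving out an array of a group outside a comparison could not change them either. The count of kept values includes all of these. Median centring, which put the median of all features as low as -0.40 (metM-Wnt against E-Wnt without folic acid, 0.025 as reported), turned the sign of the withdrawal difference of Dnajb9 (-0.16) and Ppid (-0.43) in M-Wnt, of Ppid (-0.21) and Txndc9 (-0.33) in metM-Wnt and of the average of Ppid (-0.30). It also turned Dnajb9 in metM-Wnt against E-Wnt (-0.12 in control, -0.16 without folic acid) and the differences in response between M-Wnt and E-Wnt of Dnajb9 (-0.38) and Ppid (-0.18), between metM-Wnt and M-Wnt of Hspd1 (0.24) and Ppid (0.22), and between metM-Wnt and E-Wnt of Dnajb9 (-0.041) and Txndc9 (-0.24). Under it calls were lost for the average of Txndc9 (-0.52), in control medium for Ppid (-0.56) and Txndc9 (-0.41) in M-Wnt against E-Wnt, for Ppid in metM-Wnt against M-Wnt (-0.95 in control, -0.73 without folic acid) and for Dnajb9 there (0.56 without folic acid), and were gained for M-Wnt against E-Wnt without folic acid in Hspd1 (-0.76) and Dnajb9 (-0.72). The cause was not tested. Under it the share of calls that were higher fell from 54.4% to 7.91% for withdrawal in M-Wnt, from 40.4% to 5.56% in metM-Wnt and from 48.0% to 7.30% for the average. The share fell from 52.3% to 19.9% for M-Wnt against E-Wnt without folic acid, and for metM-Wnt against E-Wnt from 53.2% to 32.5% in control medium and from 50.7% to 16.9% without folic acid. For metM-Wnt against M-Wnt it fell from 53.0% to 36.8% in control medium and from 44.1% to 31.7% without folic acid, for the difference in response between M-Wnt and E-Wnt from 57.3% to 13.8%, and for withdrawal in E-Wnt from 12.5% of 16 calls to 0 of 7; between metM-Wnt and E-Wnt it went from 77.1% of 35 calls to 100% of 4. With processed signals (the series table gave nearly the same) it was 37.6% for withdrawal in M-Wnt, 20% in metM-Wnt, 31.9% for the average and 43.9% for the difference in response between M-Wnt and E-Wnt. With the red channel alone it was 38.7% for withdrawal in M-Wnt and, for differences in response, 41.2% between M-Wnt and E-Wnt and 56.8% between metM-Wnt and M-Wnt, the latter against 42.4% as reported.

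Processed signals and the series table both gave an average of -0.012 for Ppid and -0.21 for Txndc9, no longer called, and a difference in response between M-Wnt and E-Wnt of -0.023 and -0.024 for Dnajb9. The red channel alone gave -0.0030 for Hspd1 withdrawal in E-Wnt, -0.071 for Txndc9 in metM-Wnt, -0.19 for the Txndc9 average, no longer called, -0.0084 for Dnajb9 in metM-Wnt against E-Wnt in control medium, and differences in response of -0.028 for Dnajb9 (M-Wnt and E-Wnt) and -0.0086 for Txndc9 (metM-Wnt and E-Wnt). The cause was not tested. The slide as a fixed block could not be fitted for metM-Wnt against the other lines. Elsewhere it ended the calls of Txndc9 in M-Wnt (-0.41), of its average (-0.23) and of Ppid between M-Wnt and E-Wnt in control medium (-0.57), and turned the average of Ppid (-0.017) and its difference in response between metM-Wnt and M-Wnt (0.10). Within slide 3 Txndc9 in M-Wnt was -0.41, which is the same comparison with 1 control array. The slide as a random block, added after seeing the data and with an estimated correlation of -0.14, gained calls for metM-Wnt against M-Wnt in Dnajb9 (0.38 in control) and, without folic acid, Hspd1 (-0.47) and Txndc9 (0.30), for Dnajb9 in metM-Wnt against E-Wnt without folic acid (0.34), and for the differences in response of Ppid (0.68, M-Wnt and E-Wnt) and Txndc9 (0.45, metM-Wnt and M-Wnt). It turned Ppid in M-Wnt against E-Wnt without folic acid (0.051). With only the groups compared, the difference in response of Txndc9 between metM-Wnt and M-Wnt, 0.43, was called. With the replicate number as a block the calls of the Txndc9 average (-0.20) and of Ppid between metM-Wnt and M-Wnt in control medium (-0.56) were lost, and no other call changed.

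With each array left out in turn, calls or signs changed for these ranges. Withdrawal gave -0.18 to 0.061 for Hspd1 in M-Wnt and -0.036 to 0.054 for Txndc9 in metM-Wnt, and averages of -0.094 to 0.027 for Hspd1, -0.027 to 0.057 for Ppid and -0.23 to -0.17 for Txndc9, whose call was lost without 15 of the 18 arrays. In control medium, Ppid in metM-Wnt against M-Wnt ran from -0.66 to -0.44 and Hspd1 in metM-Wnt against E-Wnt from -0.28 to 0.082. Without folic acid, M-Wnt against E-Wnt gave -0.19 to 0.052 for Hspd1 and -0.12 to 0.10 for Ppid, metM-Wnt against M-Wnt gave -0.55 to -0.30 for Hspd1, 0.51 to 0.66 for Dnajb9 and -0.79 to -0.62 for Ppid, and metM-Wnt against E-Wnt gave -0.51 to -0.47 for Hspd1 and 0.26 to 0.46 for Dnajb9. The difference in response of Dnajb9 between M-Wnt and E-Wnt ran from -0.12 to 0.13.

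The number of features called depends on the setting. It was 7563 for withdrawal in M-Wnt, from 2023 (fixed slide block) to 14984 (only those groups), 16 in E-Wnt, from 0 (within a slide) to 159 (without replicate 3 of E-Wnt withdrawal), and 166 in metM-Wnt, from 0 (fixed slide block) to 680 (without that same array). In E-Wnt 3292 features and in metM-Wnt 5433 had an unadjusted limma p under 0.05. The average had 2839, from 225 (fixed slide block) to 3972. In control medium the counts were 18729 for M-Wnt against E-Wnt (lowest 10524), 3833 for metM-Wnt against M-Wnt (844 to 6693), and without folic acid 18472 (lowest 8403) and 3177 (556 to 6181). The differences in response had 2820 (229 to 5998), 2092 (204 to 4520) and 35 (3 to 757).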
